A study of Mus musculus with 16 samples.

Results

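Ephrins, slits and netrins are guidance cues, and Eph receptors, Robo receptors, Unc5 receptors and Dcc are the proteins that read them. Genes of these families were taken from an expression table of embryonic mouse skin by symbol, as every row named for an ephrin (Efna or Efnb), an Eph receptor (Epha or Ephb), a slit, a Robo, a netrin, an Unc5 receptor or Dcc. The rule found 38 genes among the 23235 rows of the table. They were 9 EphA receptors, 5 EphB receptors, 5 ephrin-A and 3 ephrin-B ligands, 3 slits, 4 Robos, 4 netrins, 4 Unc5 receptors and Dcc.

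The study sorted cells of mouse skin at embryonic day 14.5 into 8 fractions by fluorescence and sequenced 2 libraries of each, 16 in all. The labels call the fractions Pc, Mc, Epi, DC, DCSch, Sch, Neg and Fb without spelling them out. From general knowledge of the study they are read here as hair placode, melanocyte, epidermis, dermal condensate, dermal condensate with Schwann cells, Schwann cell, the negative remainder of the sort and fibroblast. Strain, genotype, reporter alleles and the proteins used for sorting were not stated in those labels. Any member that served in the sort would be high in its fraction by design. No label says that replicates 1 and 2 came from separate litters, and the p-values speak only of how far these samples spread, which may be technical. Values are FPKM, fragments per kilobase of transcript scaled to the mapped fragments of the library, a unit per length in which levels of different genes can be set side by side.

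Ephrin-A ligands are held in the membrane by a lipid anchor and ephrin-B ligands span it. Both act on Eph receptor tyrosine kinases of a touching cell and signal back into the cell that carries them, so that they sort cells apart and keep tissue borders sharp. Slits are secreted proteins that repel growing axons and migrating cells through Robo receptors. Netrins are laminin-like proteins that attract cells through Dcc and repel them through Unc5 receptors. In skin at this stage the epidermis thickens into placodes above clusters of fibroblasts called dermal condensates, melanoblasts enter the epidermis, and nerves with their Schwann cells and vessels grow through the dermis.

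Marker genes were compared with the fraction names first. The summed level of 5 placode genes was 81.9 and 62.1 FPKM in Pc, against 32.1 and 20.8 FPKM in Epi and at most 2.40 FPKM in the other libraries. The 5 dermal condensate genes summed to 2190 and 1189 FPKM in DC, against 42.7 and 38.9 FPKM in Fb, and 6 Schwann cell genes to 1566 and 1814 FPKM in Sch. The 6 melanocyte genes summed to 6600 and 5058 FPKM in Mc. Neg held 4 erythroid genes at 32118 and 35046 FPKM, 5 skeletal muscle genes at 2519 and 2295 FPKM and 7 endothelial genes at 398 and 284 FPKM, so it is a mixture. Traces of other types were present: Schwann cell genes summed to 36.3 and 88.3 FPKM in DC, against 6.49 and 12.4 FPKM in Fb, and keratinocyte genes to 653 and 457 FPKM in Mc. The 38 genes together took between 0.0229% (Mc replicate 2) and 0.120% (DC replicate 1) of the FPKM of a library, and FPKM totals ranged from 439201 to 606437.

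Of the 38 genes, 32 reached 1 FPKM in at least 2 libraries and were tested, 12 of them in every library. The 6 below that level were Epha10, Epha5, Epha6, Ntn5, Robo3 and Slit1, whose highest libraries held 0.205, 1.0, 0.119, 0.499, 0.327 and 1.63 FPKM. Slit1, a slit known mainly from the nervous system, had its 2 highest values in Neg, 1.63 and 0.982 FPKM, against 0.203 and 0.149 FPKM in Fb. Robo3, the receptor of axons that cross the midline, was highest in Mc, at 0.327 and 0.284 FPKM.

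Most of the tested members differed among the fractions. limma's F-test over the 8 fractions called 30 of 32 members, where it called 55.8% of all 14171 rows tested. The exceptions were Ephb4, the receptor for ephrin-B2 on veins (adjusted p = 0.611), and Efna2, an ephrin-A ligand (adjusted p = 0.0639). With the replicate number as a block both were called too (adjusted p = 0.000962 and 0.0106), so that 32 of 32 members were, where 80.6% of all rows were. DC was the fraction with the highest mean for 16 of the 32, or 50%, where it was highest for 19.7% of all rows. Fb was highest for 6 members, Pc and Epi for 3 each, Sch and Neg for 2 each and Mc for 0, where Mc was highest for 12.4% of all rows. A specificity index that is 0 for equal levels in 7 fractions and 1 for a gene in a single fraction, with DCSch left aside, had a median of 0.53 over the members and 0.212 over all rows. These are bulk samples, in which fewer cells of a type and less RNA per cell cannot be told apart.

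**Figure D1:**
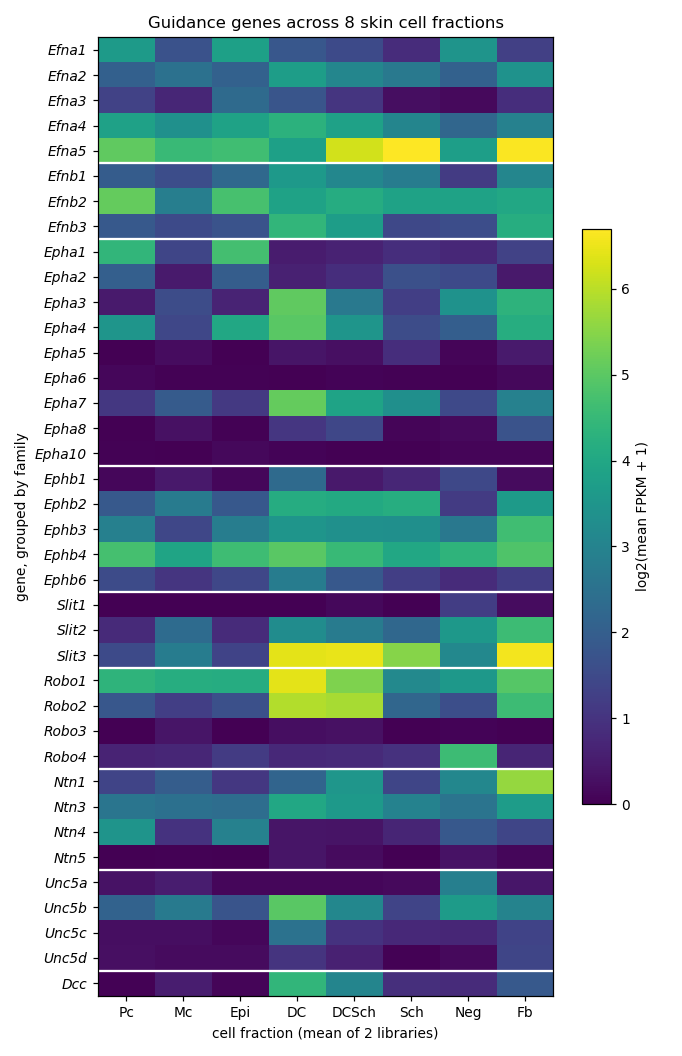
Mean level of each of the 38 genes (rows, grouped by family) in the 8 sorted fractions (columns, mean of 2 libraries), coloured by log2(mean FPKM + 1). Robo1, Robo2, Slit3 and Efna5 have the brightest cells, the Slit3 and Robo2 cells are dark in Pc and Epi, and Robo4 and Unc5a are bright in the Neg column alone.

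The ephrin-A ligands followed unlike patterns. Efna5, a ligand of several EphA receptors, stood at 25.2 and 39.7 FPKM in Pc, 20.4 and 24.4 in Mc, 20.6 and 27.1 in Epi, 9.66 and 16.3 in DC, 68.7 and 81.8 in DCSch, 84.9 and 121 in Sch, 9.16 and 16.1 in Neg and 81.0 and 121 in Fb. Its Sch, DCSch and Fb libraries were all above 60 FPKM, those of the epithelial fractions lay between 20.6 and 39.7 FPKM, and those of DC and Neg were the lowest, at 9.16 to 16.3 FPKM. Efna1, a ligand of Epha2, had 13.2 and 9.87 FPKM in Pc, 3.02 and 1.41 in Mc, 15.5 and 10.4 in Epi, 2.37 and 2.69 in DC, 1.96 and 1.69 in DCSch, 0.434 and 1.18 in Sch, 11.4 and 8.66 in Neg and 1.98 and 0.810 in Fb. It was high in Pc, Epi and Neg, whose libraries overlapped each other and not those of any other fraction. Efna4 had 14.2 and 12.4 FPKM in Pc, 10.9 and 7.55 in Mc, 13.5 and 13.7 in Epi, 26.6 and 11.2 in DC, 14.2 and 12.1 in DCSch, 8.68 and 5.80 in Sch, 4.06 and 3.24 in Neg and 7.63 and 5.78 in Fb. Its highest library was DC replicate 1, while DC replicate 2 lay below both Epi libraries. Efna2 had 3.50 and 2.84 FPKM in Pc, 5.05 and 4.25 in Mc, 2.52 and 3.98 in Epi, 16.9 and 7.85 in DC, 9.59 and 5.22 in DCSch, 5.09 and 5.93 in Sch, 4.25 and 2.21 in Neg and 14.5 and 4.76 in Fb. The replicate 1 libraries of DC and Fb were well above their replicate 2 partners, and the file's row for this gene spans 672333 bases that overlap 45 other protein-coding genes, so its value is uncertain. Efna3 had means of 3.98 ± 0.460 FPKM in Epi and 2.42 ± 2.06 FPKM in DC (SD, n = 2 each) and means of at most 1.51 FPKM elsewhere.

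Among the ephrin-B ligands, Efnb2, the ligand of Ephb4 and a marker of arteries, had 31.4 and 35.9 FPKM in Pc, 6.59 and 6.02 in Mc, 24.7 and 27.5 in Epi, 13.4 and 13.7 in DC, 16.9 and 16.7 in DCSch, 13.4 and 13.8 in Sch, 14.1 and 12.9 in Neg and 14.2 and 15.9 in Fb. The Pc libraries were the highest, the Epi libraries next, and the Mc libraries the lowest, without overlap with any other fraction. Efnb3, an ephrin-B known from midline repulsion of axons, had 2.63 and 2.70 FPKM in Pc, 1.95 and 1.76 in Mc, 2.75 and 1.81 in Epi, 26.3 and 14.3 in DC, 15.3 and 9.29 in DCSch, 1.95 and 1.5 in Sch, 2.51 and 1.45 in Neg and 20.8 and 13.4 in Fb. DC, DCSch and Fb were high and overlapped each other, and each of the other libraries was below 2.76 FPKM. Efnb1, which is mutated in human craniofrontonasal syndrome, had 2.78 and 2.95 FPKM in Pc, 2.20 and 1.78 in Mc, 4.97 and 2.56 in Epi, 15.5 and 7.19 in DC, 9.58 and 5.44 in DCSch, 6.05 and 6.13 in Sch, 1.55 and 0.904 in Neg and 10.5 and 4.47 in Fb. Here DC and Fb overlapped, and Neg was the lowest.

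**Figure D2:**
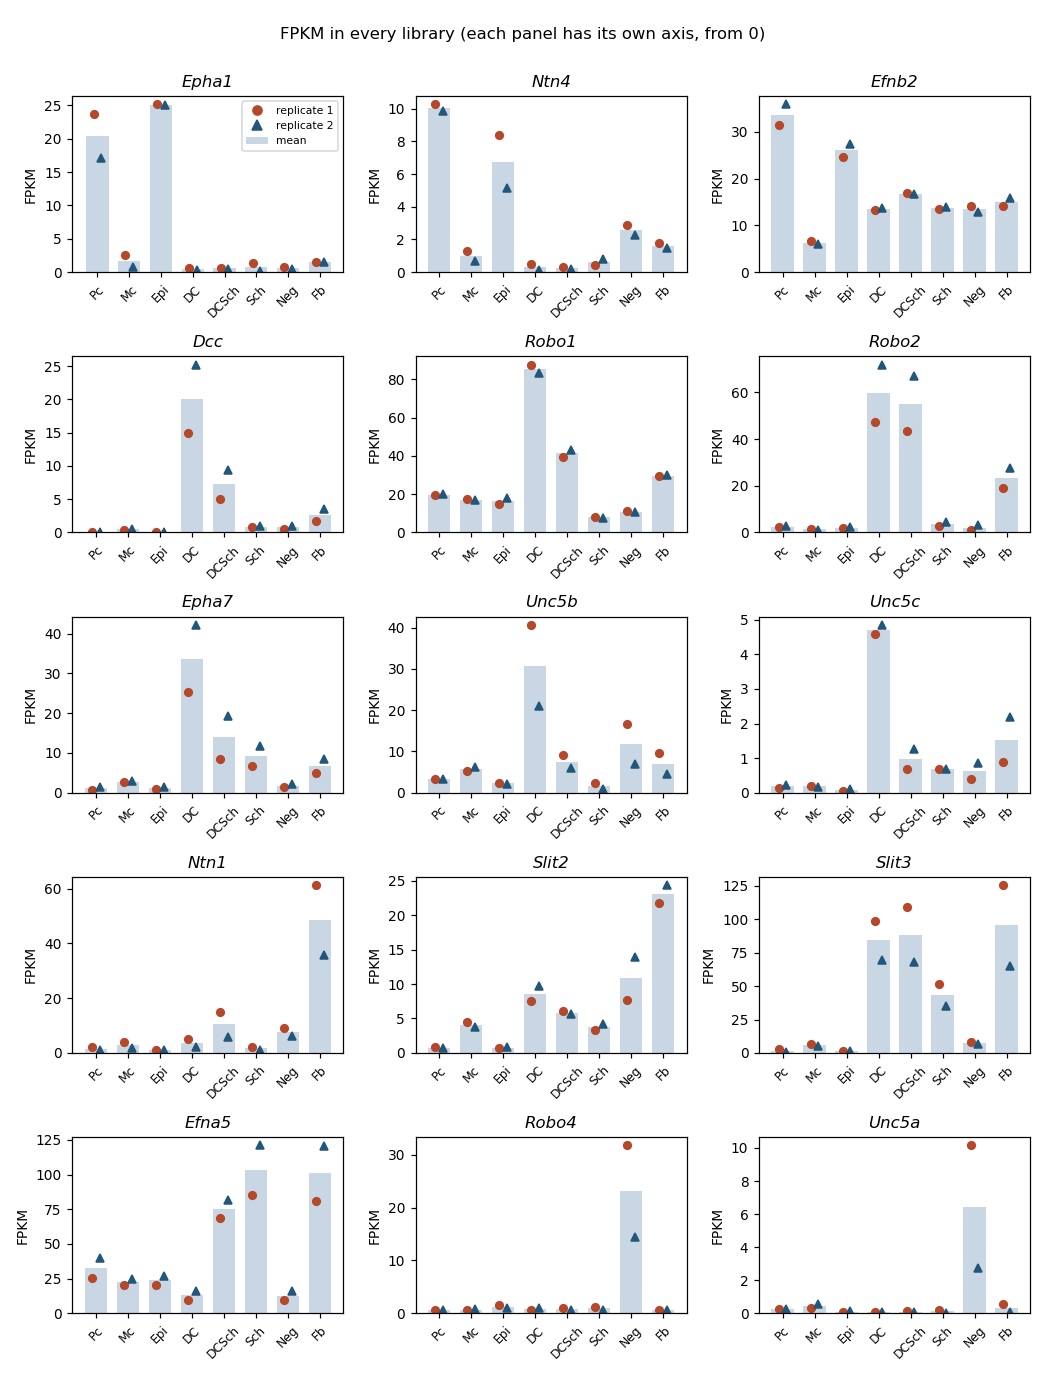
FPKM of 15 members in every library, 1 panel per gene with its own axis from 0. Circles are replicate 1, triangles replicate 2 and bars their mean, for the 8 fractions from Pc to Fb. Epha1 and Ntn4 stand high in Pc and Epi, Dcc, Robo1, Epha7 and Unc5c in DC, Ntn1 and Slit2 in Fb, and Robo4 and Unc5a in Neg.

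Of the EphA receptors, Epha1 was the epithelial gene. It had 23.8 and 17.1 FPKM in Pc, 2.54 and 0.710 in Mc, 25.1 and 25.1 in Epi, 0.603 and 0.255 in DC, 0.613 and 0.506 in DCSch, 1.43 and 0.238 in Sch, 0.831 and 0.525 in Neg and 1.47 and 1.55 in Fb. Both Pc and both Epi libraries were at least 17.1 FPKM, and each of the other 12 libraries was at most 2.54 FPKM. Epha2, also a receptor of epithelial cells, reached 3.07 ± 1.35 FPKM in Pc, 2.93 ± 0.269 FPKM in Epi, 2.1 ± 0.423 FPKM in Sch and 1.86 ± 0.884 FPKM in Neg (SD, n = 2 each), and means of at most 0.835 FPKM elsewhere. Epha3 had 0.235 and 0.560 FPKM in Pc, 1.93 and 1.98 in Mc, 0.445 and 0.759 in Epi, 29.0 and 36.1 in DC, 3.82 and 7.22 in DCSch, 0.719 and 2.01 in Sch, 7.74 and 11.5 in Neg and 15.3 and 23.1 in Fb. The order DC, Fb, Neg held without overlap, and the Pc and Epi libraries were all below 0.76 FPKM. Epha4, the Eph receptor that binds both ephrin classes, had 11.3 and 9.15 FPKM in Pc, 2.15 and 1.26 in Mc, 13.8 and 16.4 in Epi, 24.3 and 37.3 in DC, 6.12 and 14.4 in DCSch, 2.04 and 1.88 in Sch, 2.30 and 3.64 in Neg and 14.3 and 20.0 in Fb. DC was the highest, Fb overlapped Epi, and Mc, Sch and Neg were the lowest. Epha7 had 0.793 and 1.42 FPKM in Pc, 2.67 and 2.89 in Mc, 0.856 and 1.43 in Epi, 25.2 and 42.2 in DC, 8.51 and 19.3 in DCSch, 6.75 and 11.6 in Sch, 1.45 and 2.12 in Neg and 4.84 and 8.53 in Fb. Both DC libraries were above all others, and the DCSch libraries, at 8.51 and 19.3 FPKM, spanned the highest Sch and Fb values. Epha8 reached 2.29 ± 2.06 FPKM in Fb (SD, n = 2), with 3.74 FPKM in replicate 1 and 0.833 FPKM in replicate 2.

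The 5 EphB receptors bind ephrin-B ligands. Ephb2 had 3.36 and 1.95 FPKM in Pc, 5.65 and 6.10 in Mc, 3.0 and 2.19 in Epi, 23.3 and 9.93 in DC, 18.0 and 13.8 in DCSch, 19.1 and 15.2 in Sch, 1.30 and 1.18 in Neg and 15.5 and 7.41 in Fb. Sch, DC and DCSch overlapped, and Neg was the lowest. Ephb3 had 7.92 and 5.10 FPKM in Pc, 2.44 and 0.948 in Mc, 7.00 and 5.42 in Epi, 14.7 and 5.96 in DC, 12.2 and 6.52 in DCSch, 11.2 and 6.82 in Sch, 7.35 and 3.44 in Neg and 34.3 and 13.9 in Fb. Fb replicate 1 was the highest library, Fb replicate 2 lay below DC replicate 1, and the Mc libraries were the lowest. Ephb4 was present everywhere, with means from 14.0 ± 4.03 FPKM in Mc to 30.7 ± 17.4 FPKM in DC (SD, n = 2 each). Ephb1 reached 3.95 ± 1.06 FPKM in DC and 1.74 ± 0.494 FPKM in Neg, and Ephb6, a receptor without kinase activity, 6.05 ± 3.92 FPKM in DC (SD, n = 2 each).

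The slits were dermal genes. Slit3 had 2.81 and 0.825 FPKM in Pc, 6.84 and 5.28 in Mc, 1.51 and 1.62 in Epi, 98.4 and 69.9 in DC, 109 and 68.4 in DCSch, 51.5 and 35.2 in Sch, 8.48 and 6.96 in Neg and 126 and 65.3 in Fb. Its DC, DCSch and Fb libraries overlapped between 65.3 and 126 FPKM, Sch lay below them, and the Pc and Epi libraries were all below 2.82 FPKM. Slit2 had 0.805 and 0.673 FPKM in Pc, 4.43 and 3.78 in Mc, 0.686 and 0.872 in Epi, 7.54 and 9.65 in DC, 6.04 and 5.66 in DCSch, 3.37 and 4.14 in Sch, 7.74 and 13.9 in Neg and 21.8 and 24.3 in Fb. Fb was the highest without overlap, and Neg and DC overlapped below it.

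On mm10 the deposited rows place Epha7 on chromosome 4 (28813145 to 28967499), Robo4 on chromosome 9 (37402046 to 37414022), Ntn1 and Slit3 on chromosome 11 (68209364 to 68386826 and 35121456 to 35708507), Efna5 on chromosome 17 (62602957 to 62881317) and Dcc on chromosome 18 (71253632 to 72351069).

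Of the slit receptors, Robo1 and Robo2 were highest in DC. Robo1 had 19.3 and 19.9 FPKM in Pc, 17.2 and 17.0 in Mc, 15.0 and 18.2 in Epi, 87.6 and 83.0 in DC, 39.5 and 43.2 in DCSch, 8.21 and 7.61 in Sch, 11.4 and 10.4 in Neg and 29.4 and 30.0 in Fb. The DC libraries were the highest of all, the DCSch libraries next and the Fb libraries after these, with no overlap between the fractions. The deposited row for Robo1 begins inside the gene, at base 72663149 of chromosome 16 on mm10, where the GENCODE annotation starts it at base 72308306. Robo2 had 2.31 and 2.70 FPKM in Pc, 1.51 and 1.21 in Mc, 1.89 and 2.28 in Epi, 47.5 and 71.9 in DC, 43.3 and 67.2 in DCSch, 2.84 and 4.39 in Sch, 1.10 and 3.02 in Neg and 18.8 and 27.5 in Fb. DC and DCSch overlapped, Fb lay below both, and each of the other libraries was at most 4.39 FPKM. Robo4, the Robo receptor of endothelial cells, had 0.651 and 0.528 FPKM in Pc, 0.565 and 0.715 in Mc, 1.5 and 1.0 in Epi, 0.532 and 0.900 in DC, 0.983 and 0.514 in DCSch, 1.24 and 0.629 in Sch, 31.7 and 14.3 in Neg and 0.601 and 0.647 in Fb. Both Neg libraries were at least 14.3 FPKM, and each of the others was at most 1.5 FPKM.

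Netrins fell on both sides of the epithelial border. Ntn1, the classical diffusible netrin, had 2.12 and 1.11 FPKM in Pc, 3.95 and 1.97 in Mc, 1.09 and 1.18 in Epi, 4.91 and 2.02 in DC, 15.1 and 5.97 in DCSch, 2.04 and 1.21 in Sch, 9.21 and 6.08 in Neg and 61.2 and 35.9 in Fb. Both Fb libraries were above every other library, and the DC libraries were among the low ones. Ntn4, a netrin that is built into basement membranes, had 10.3 and 9.87 FPKM in Pc, 1.27 and 0.671 in Mc, 8.38 and 5.13 in Epi, 0.492 and 0.133 in DC, 0.327 and 0.217 in DCSch, 0.453 and 0.796 in Sch, 2.88 and 2.30 in Neg and 1.76 and 1.48 in Fb. It was high in Pc and Epi, without overlap with any other fraction, and its means were lowest in DC and DCSch, where no library reached 0.5 FPKM. Ntn3 had 5.13 and 5.07 FPKM in Pc, 4.50 and 4.54 in Mc, 4.37 and 4.22 in Epi, 16.1 and 14.5 in DC, 11.5 and 10.8 in DCSch, 6.62 and 7.12 in Sch, 5.11 and 4.77 in Neg and 13.5 and 10.7 in Fb. DC was the highest, Fb and DCSch overlapped below it, and the remaining fractions lay between 4.22 and 7.12 FPKM. The deposited row for Ntn3 spans 33957 bases, where the GENCODE annotation gives the gene 5684. It overlaps Tbc1d24, so the Ntn3 value is uncertain.

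Dcc, Unc5b and Unc5c, receptors of netrins, had their highest means in DC. Dcc, the attractive receptor, had 0.0402 and 0.0202 FPKM in Pc, 0.389 and 0.537 in Mc, 0.0523 and 0.0831 in Epi, 15.0 and 25.2 in DC, 5.09 and 9.38 in DCSch, 0.748 and 1.02 in Sch, 0.558 and 0.976 in Neg and 1.70 and 3.58 in Fb. Its DC libraries were the highest, those of DCSch next and those of Fb after these, and no Pc or Epi library reached 0.1 FPKM. Unc5c had 0.145 and 0.232 FPKM in Pc, 0.201 and 0.171 in Mc, 0.0601 and 0.0925 in Epi, 4.58 and 4.85 in DC, 0.692 and 1.27 in DCSch, 0.697 and 0.690 in Sch, 0.408 and 0.872 in Neg and 0.888 and 2.19 in Fb. Both DC libraries were at least 4.58 FPKM, and each of the others was at most 2.19 FPKM. Unc5b, a repulsive receptor also known from vessels, had 3.37 and 3.26 FPKM in Pc, 5.26 and 6.30 in Mc, 2.44 and 2.21 in Epi, 40.6 and 20.9 in DC, 9.24 and 5.86 in DCSch, 2.25 and 0.902 in Sch, 16.8 and 7.04 in Neg and 9.52 and 4.42 in Fb. DC was the highest without overlap, and Neg and Fb overlapped below it. Unc5a had 0.274 and 0.235 FPKM in Pc, 0.343 and 0.568 in Mc, 0.0426 and 0.134 in Epi, 0.0811 and 0.0779 in DC, 0.110 and 0.0634 in DCSch, 0.201 and 0.0387 in Sch, 10.1 and 2.72 in Neg and 0.564 and 0.0664 in Fb. It was at or above 1 FPKM in the Neg libraries alone, and the file's row for it overlaps Hk3. Unc5d, a receptor for Flrt2, reached 1.64 ± 0.442 FPKM in Fb and 1.01 ± 0.501 FPKM in DC (SD, n = 2 each). It was at or above 1 FPKM in the Fb libraries and DC replicate 2 alone. It would not have been tested without Fb, so its calls against Fb in Epi, Sch and Neg are descriptions.

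Of the tested members, 7 of 32 marked a single fraction, standing above all 6 others with DCSch left aside, where 11.3% of all rows did. The rule asked limma for an adjusted p under 0.05 on the weakest of the 6 comparisons and a log2 difference of at least 1 in each. The DC genes were Dcc, Epha7, Robo1 and Unc5c, where 2.44% of all rows marked DC. Their smallest log2 differences from another fraction were 2.54, 1.77, 1.49 and 1.22. Ntn1 marked Fb, as did 1.52% of all rows, and Robo4 and Unc5a marked Neg, as did 3.4%. No member marked Pc or Epi, where 0.00706% and 0.79% of all rows did, nor Sch or Mc (1.95% and 1.16%). Unc5a entered the test through its Neg libraries alone and had to differ, so its mark is a description. With a pseudocount of 0.1 in place of 1 the marks of Epha7, Unc5c and Ntn1 were lost, as they were without Fb replicate 1, and 4 remained each time. Unc5c also lost its mark without either DC replicate, Epha7 without DC replicate 2 or Sch replicate 1 and with libraries rescaled to the same total, and Ntn1 without Neg replicate 2. When either Neg replicate was left out, Unc5a passed the filter on low values no more and was not tested. With the replicate number as a block 12 members were marked, the further ones being Ephb6, Robo2 and Unc5b for DC and Ephb3 and Slit2 for Fb.

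Placode and epidermis, the epithelial pair, showed no called difference in these genes. A call throughout needed an adjusted p under 0.05 and a log2 difference of 1 or more in either direction. On that basis limma called 0 of 32 members between Pc and Epi, where it called 1.52% of all rows, 0.155% higher and 1.37% lower. Dcc, Epha3, Epha8, Ephb1, Slit2, Unc5a, Unc5c and Unc5d had means below 1 FPKM in both fractions. On log2(FPKM + 1) they could not reach a difference of 1 and so could not be called. At an unadjusted p under 0.05 it called 1 of 32, where it called 8.76% of all rows. That member was Efna3, with a difference of -0.99 ± 0.36 (SE) on the log2 scale, with an adjusted p of 0.342. Epha1 was at 20.4 ± 4.74 FPKM in Pc and 25.1 ± 0.0403 FPKM in Epi, and Efnb2 at 33.6 ± 3.14 FPKM in Pc and 26.1 ± 1.97 FPKM in Epi (SD, n = 2 each). The libraries of Pc and Epi did not overlap for either gene, but the log2 differences, -0.30 and 0.35, missed the threshold (adjusted p = 1 and 0.587). Of the other pathway genes, 0 of 20 for Eph and ephrin signalling, 0 of 11 for slit and Robo and 0 of 14 tested for netrin signalling were called. A difference below the threshold does not show that the fractions are alike.

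Dermal condensate and fibroblast, the dermal pair, differed in receptors and ligands. limma called 9 members higher and 4 lower in DC than in Fb, or 13 of 32, where 15.3% of all rows were called, 6.13% higher and 9.2% lower. The 9 higher members were the slit receptors Robo1 and Robo2, the netrin receptors Dcc, Unc5b and Unc5c, the Eph receptors Epha7, Ephb1 and Ephb6, and the ligand Efna4. The 4 lower ones were all ligands, the netrins Ntn1 and Ntn4, the slit Slit2 and the ephrin Efna5. Over the 32 members the median log2 difference was 0.37, and over all rows it was -0.00326.

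Values in this and the following comparisons are log2 differences ± SE on log2(FPKM + 1), which understates the change of low genes, with limma's adjusted p. Dcc rose by 2.54 ± 0.33 (adjusted p = 0.000148). Epha7 rose by 2.17 ± 0.41 (adjusted p = 0.00219) and Ephb1 by 2.08 ± 0.19 (adjusted p = 1.02e-05). Ephb1 reached 1 FPKM in DC and Neg alone and entered the test through them, so its differences from Fb are descriptions. For Unc5b the difference was 2.00 ± 0.45 (adjusted p = 0.00744). Ephb6 was higher by 1.52 ± 0.42 (adjusted p = 0.0235) and Robo1 by 1.49 ± 0.16 (adjusted p = 3.93e-05). The libraries of DC and Fb did not overlap for any of these genes. Ntn1 fell the most, with a log2 difference of -3.50 ± 0.47 (adjusted p = 0.00019), and Efna5 next, with -2.88 ± 0.35 (adjusted p = 9.06e-05). Slit2 had -1.33 ± 0.26 (adjusted p = 0.00251) and Ntn4 -1.01 ± 0.26 (adjusted p = 0.0144). Slit3, the more abundant slit, was at 84.2 ± 20.1 FPKM in DC and 95.4 ± 42.6 FPKM in Fb (SD, n = 2 each) and was not called.

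**Figure D3:**
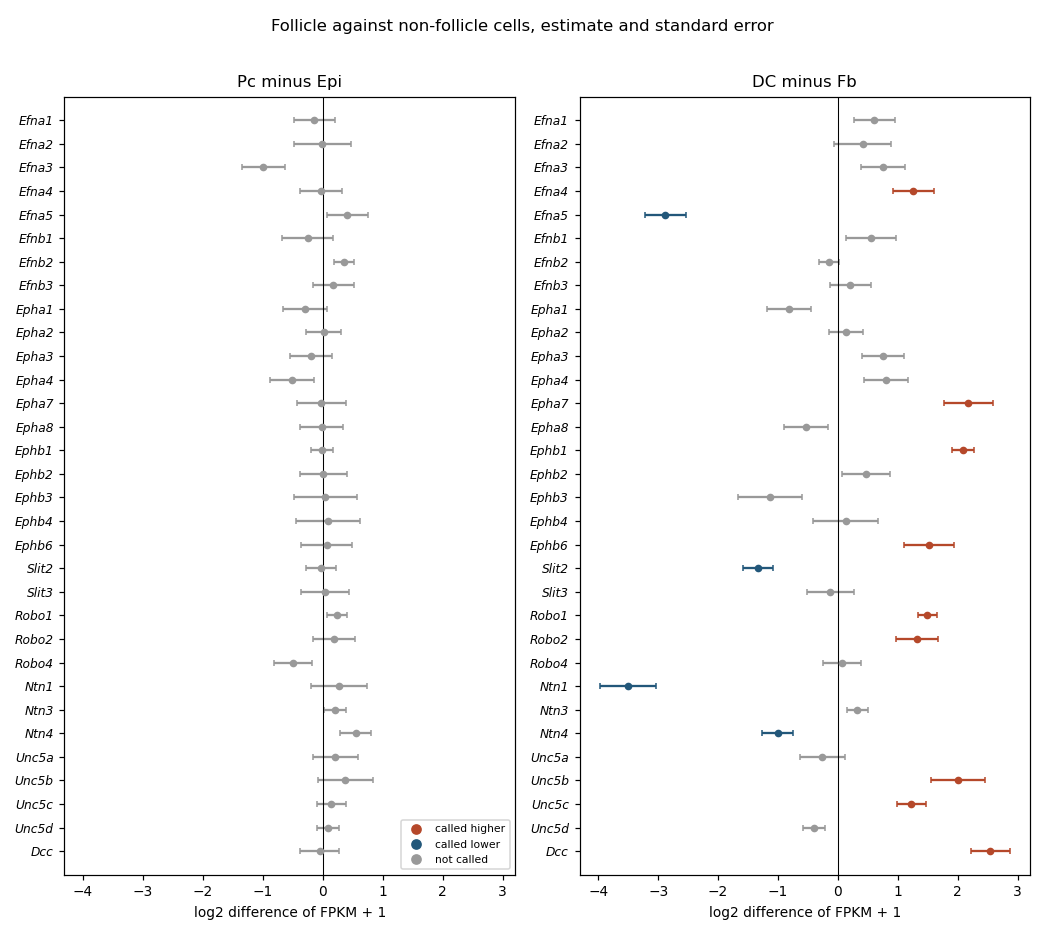
Log2 difference of each tested member between follicle and other cells, Pc minus Epi on the left and DC minus Fb on the right. Points are limma estimates on log2(FPKM + 1), bars their standard errors, and colours the calls. All 32 points are grey on the left. On the right, Dcc is the highest at 2.54 and Ntn1 the lowest at -3.50.

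Schwann cell genes were higher in DC than in Fb, as given above. Of the 9 members that were higher in DC than in Fb, Robo1, Robo2, Dcc, Unc5b and Unc5c had lower means in Sch than in Fb. Epha7, Ephb1, Ephb6 and Efna4 had higher means in Sch than in Fb: Epha7 was at 6.75 and 11.6 FPKM in Sch, against 4.84 and 8.53 FPKM in Fb, and Ephb1 at 0.668 and 0.606 FPKM in Sch, against 0.20 and 0.112 FPKM in Fb. Each of the 9 was lower in both Sch libraries than in both DC libraries. A list of 6 neuron genes summed to 26.0 and 17.6 FPKM in DC, against 14.3 and 16.0 FPKM in Fb, with Prph at 0 in both DC libraries and Elavl3 at 0 in both Fb libraries. The part of the Schwann cell and neuron lists in these differences was not tested. The calls of Ntn1, Efna5, Robo1, Ephb1, Epha7 and Dcc held under each of the 10 alternatives run for this comparison. That of Ephb1 remains a description, for the reason given above. With the 4 libraries of DC and Fb fitted alone 6 members were called in place of 13, and Slit2 (adjusted p = 0.0577), Ntn4, Robo2, Unc5b, Unc5c, Ephb6 and Efna4 were not (0.0564 to 0.183). Unc5b, Efna4 and Ephb6 lost theirs without Fb replicate 2 (adjusted p 0.0765 to 0.175) and without DC replicate 1 (0.0769 to 0.201), Robo2 and Ntn4 without Fb replicate 1 or DC replicate 2 (0.0780 to 0.131), and Unc5c without Fb replicate 1, where its log2 difference was 0.84. Ephb3 was also called with the replicate block, -1.14, adjusted p = 0.000989.

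Proteins that act with these receptors were examined from lists of pathway genes. Of 14 tested genes of netrin signalling, 3 were higher in DC than in Fb and 0 lower. Trim9, a ubiquitin ligase that binds Dcc, was at 97.1 ± 3.31 FPKM in DC and 2.27 ± 0.398 FPKM in Fb (SD, n = 2 each), a log2 difference of 4.91 ± 0.20 (adjusted p = 1.24e-07). Ntng1, a membrane-anchored netrin that does not bind Dcc, was at 58.4 ± 20.5 FPKM in DC and 7.59 ± 0.0236 FPKM in Fb (SD, n = 2 each). Dscam, another netrin receptor, was at 2.95 ± 0.319 FPKM in DC and 0.0479 ± 0.0191 FPKM in Fb (SD, n = 2 each). Of 20 Eph and ephrin signalling genes 2 were higher and 2 lower. Adam10, a protease that cuts ephrin-A ligands, had 84.3 ± 27.3 FPKM in DC and 28.1 ± 10.1 FPKM in Fb, and the exchange factor gene Kalrn 13.5 ± 1.61 FPKM in DC and 4.54 ± 1.25 FPKM in Fb (SD, n = 2 each). Vav3, another exchange factor, and the adaptor Nck1 were the lower ones, with log2 differences of -1.49 and -1.28. None of the 11 slit and Robo signalling genes was called by limma in this comparison.

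Whether the follicle differences were unlike in epithelium and dermis was tested as (Pc minus Epi) minus (DC minus Fb). limma called 9 of 32 members, where it called 14.1% of all rows. Ntn1 (3.77), Efna5 (3.29), Ntn4 (1.55) and Slit2 (1.30) had positive values on the log2 scale, and Dcc (-2.59), Epha7 (-2.20), Ephb1 (-2.1), Efna3 (-1.75) and Robo1 (-1.25) had negative ones. Dcc, Ephb1 and Slit2 were below 1 FPKM in every Pc and Epi library. Their Pc minus Epi differences, -0.05, -0.02 and -0.03, had little room to move, so their values here largely repeat DC minus Fb. A fit with the replicate block called 16 members, the further 7 being Efna4, Epha4, Ephb3, Ephb6, Robo2, Unc5b and Unc5c. Unc5c was also below 1 FPKM in those libraries.

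Across the epithelial border more members were called lower than higher in the epithelial fractions. Between Pc and DC, limma called 6 members higher and 18 lower in Pc, or 24 of 32, where 27.5% of all rows were called, 13.3% higher and 14.3% lower. Between Epi and Fb it called 5 higher and 15 lower in Epi, or 20 of 32, where 24.5% were called, 10.5% higher and 14% lower. These comparisons share no library. Ephb1, among those lower in Pc, entered the test through DC and Neg alone. Unc5d, among those lower in Epi, entered it through Fb and DC alone. Their calls in these comparisons are descriptions. Of the genes called lower, 11 were the same in both, 11 of 18 (61.1%) for Pc against DC and 11 of 15 (73.3%) for Epi against Fb: Slit2, Slit3, Robo2, Dcc, Unc5c, Ntn3, Efnb3, Epha3, Epha7, Epha8 and Ephb2. Over all rows 1145 were lower in both, 56.6% of those lower in Pc than in DC and 57.6% of those lower in Epi than in Fb. Of those called higher, 4 were the same, 4 of 6 (66.7%) and 4 of 5 (80%): Epha1, Epha2, Efna1 and Ntn4. Over all rows 890 were higher in both, 47.4% of those higher in Pc and 60% of those higher in Epi. Whether the members' shares differ from these was not tested. The median log2 difference of the members was -1.32 for Pc against DC and -1.18 for Epi against Fb, where those of all rows were -0.01 and 0.

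The epithelial genes led by Epha1 and Ntn4 had large differences. Epha1 was higher in Pc than in DC by 3.90 ± 0.37 (adjusted p = 5.52e-06) and in Epi than in Fb by 3.38 ± 0.37 (adjusted p = 1.91e-05). Ntn4 was higher by 3.09 ± 0.26 (adjusted p = 2.03e-06) in Pc and by 1.54 ± 0.26 (adjusted p = 0.000529) in Epi. Efna1, the ephrin ligand, differed by 1.82 ± 0.34 (adjusted p = 0.00119) and 2.56 ± 0.34 (adjusted p = 9.41e-05), and Epha2 by 1.39 ± 0.29 (adjusted p = 0.00226) and 1.51 ± 0.29 (adjusted p = 0.00137). Efnb2 was called between Pc and DC, at 1.25 ± 0.16 (adjusted p = 8.11e-05), and its log2 difference between Epi and Fb, 0.75, was below the size asked for. Efna5 was called in opposite directions, higher in Pc than in DC by 1.27 ± 0.35 (adjusted p = 0.0123) and lower in Epi than in Fb, at -2.02 ± 0.35 (adjusted p = 0.00065). Efna3 was called between Epi and Fb and not between Pc and DC, at 1.43 ± 0.36 (adjusted p = 0.00898).

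The 250 bases before the RefSeq start of 2 epithelial genes are shown. Epha1, a receptor, and Ntn4, a basement membrane netrin, were highest in the same 4 libraries. Sequences come from RefSeq on GRCm38.p6, an entry of that table being found for 33 of the 38 members. Motifs searched on both strands were TATAAA, the GC box GGGCGG, the E-box CACCTG of Snail and Zeb factors, the Sox and Tcf core ACAAAG and the ETS core CCGGAA, and matches are in capitals. Epha1 lies at chr6:42373269-42373518 on the minus strand and Ntn4 at chr10:93640799-93641048 on the plus strand. The GENCODE annotation starts Ntn4 at base 93640681, so by that annotation the Ntn4 stretch lies inside the gene.
Epha1: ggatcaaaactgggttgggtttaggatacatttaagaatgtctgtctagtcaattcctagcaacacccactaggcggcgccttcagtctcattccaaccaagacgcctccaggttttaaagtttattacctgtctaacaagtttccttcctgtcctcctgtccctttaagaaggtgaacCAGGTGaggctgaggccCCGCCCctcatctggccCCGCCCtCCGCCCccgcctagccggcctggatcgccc
Ntn4: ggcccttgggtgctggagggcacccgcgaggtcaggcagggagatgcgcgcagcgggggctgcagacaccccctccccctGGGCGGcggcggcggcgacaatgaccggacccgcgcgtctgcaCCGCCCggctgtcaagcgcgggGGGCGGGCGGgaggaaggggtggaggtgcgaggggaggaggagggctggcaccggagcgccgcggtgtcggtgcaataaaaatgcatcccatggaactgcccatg
The Epha1 stretch has a GC content of 54.4% and holds GGGCGG 3 times and CACCTG 1 time. The Ntn4 stretch has a GC content of 73.2% and holds GGGCGG 4 times, 2 of the matches overlapping, and none of the other motifs. Of 27025 promoters of the same length, 32.9% hold GGGCGG, 17.1% CACCTG, 13.0% TATAAA, 16.5% ACAAAG and 12.2% CCGGAA, and their median GC content is 52.0%. The deposited row for Epha1 runs 7290 bases beyond this start and overlaps Zyx at its other end, and Zyx itself was at 52.7 and 32.6 FPKM in Pc and 35.4 and 25.2 FPKM in Epi, against 21.6 and 10.1 FPKM in DC and 73.5 and 31.2 FPKM in Fb.

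The dermal genes gave the larger differences. Slit3 differed by -4.99 ± 0.40 (adjusted p = 1.49e-06) between Pc and DC and by -5.16 ± 0.40 (adjusted p = 1.45e-06) between Epi and Fb. Epha3 had -4.59 ± 0.35 (adjusted p = 1.04e-06) and -3.64 ± 0.35 (adjusted p = 7.09e-06). Robo2 had -4.09 ± 0.35 (adjusted p = 2.72e-06) and -2.95 ± 0.35 (adjusted p = 3.97e-05). Dcc, at or below 0.0831 FPKM in the epithelial libraries, had -4.31 ± 0.33 (adjusted p = 1.02e-06) in the first comparison, and Epha7 -4.01 ± 0.41 (adjusted p = 1.04e-05). Ntn1 was lower in Epi than in Fb, at -4.49 ± 0.47 (adjusted p = 1.32e-05), and its log2 difference between Pc and DC, -0.72, was not called (adjusted p = 0.269). Slit2 had -3.76 ± 0.26 (adjusted p = 6.04e-07) in Epi. Efnb3, the midline ephrin-B, had -2.48 ± 0.34 (adjusted p = 0.000117) and -2.44 ± 0.34 (adjusted p = 0.000133).

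**Figure D4:**
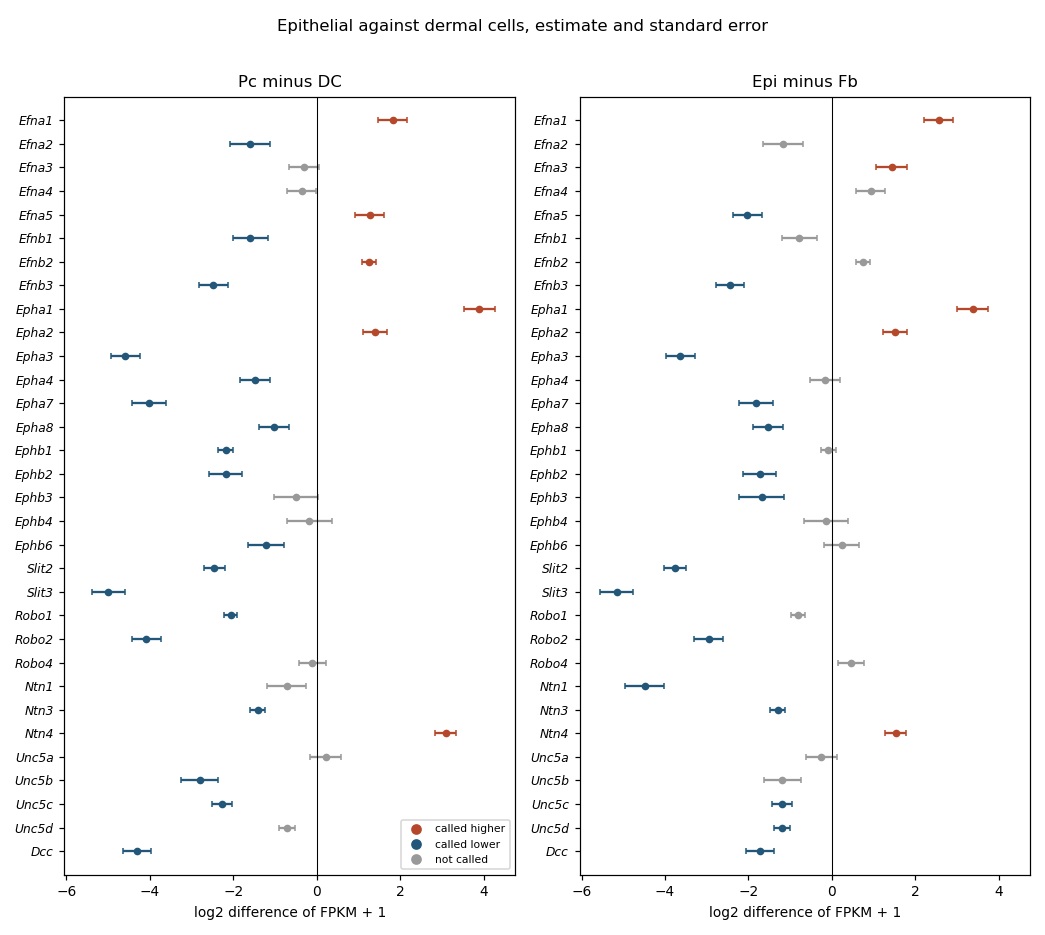
Log2 difference of each tested member across the epithelial border, Pc minus DC on the left and Epi minus Fb on the right. Points are limma estimates on log2(FPKM + 1), bars their standard errors, and colours the calls. Epha1, Ntn4, Efna1 and Epha2 lie to the right of 0 in both panels, and Slit3 lies furthest to the left, at -4.99 and -5.16.

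Receptors and ligands lay on both sides of the border in several families. Of 8 tested ephrins, Efna1 was called higher and Efnb3 lower in the epithelium in both comparisons. Of 11 tested Eph receptors, Epha1 and Epha2 were called higher in both and Epha3, Epha7, Epha8 and Ephb2 lower in both. Both slits tested were lower in both comparisons, and Robo1 was lower in Pc than in DC, at -2.06 ± 0.16 (adjusted p = 1.25e-06), and not called between Epi and Fb, where its log2 difference was -0.81.

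For Pc against DC, 18 of 24 calls held under each alternative that could be run. Ephb6 lost its call with a pseudocount of 0.1, no filter, quantile normalization and the 4 libraries fitted alone (limma's adjusted p 0.0522 to 0.0967). Epha8 lost its call with no filter (0.0659). Efna2, Efna5, Efnb1, Epha8 and Ephb6 lost theirs without DC replicate 1 (adjusted p 0.106 to 0.321), Efna2, Efna5, Epha4, Epha8 and Ephb6 without Pc replicate 2 (0.0525 to 0.274), Efna2, Efnb1 and Epha8 without Pc replicate 1 (0.0545 to 0.131) and Epha4 without DC replicate 2 (0.0645). For Epi against Fb, 15 of 20 held, while Epha8, Ephb2 and Ephb3 lost theirs without Fb replicate 1 (0.0446 to 0.210, log2 differences -1.24 to -0.84), Efna3 and Unc5c without Fb replicate 2 (0.0239 to 0.0514, log2 differences 1.36 and -0.81), Efna3 and Ephb3 without Epi replicate 1 (0.0614 to 0.0792) and Ephb3 without Epi replicate 2 (0.139). Efna2 (-1.18, adjusted p = 0.0217) and Unc5b (-1.18, adjusted p = 0.00613) were also lower in Epi than in Fb with the replicate block. Rescaling every library to the same total moved the median of all rows to -0.20 for Epi against Fb and -0.12 for Pc against DC, and the share of higher calls in Epi to 31.6%, from 42.7% as deposited. Then 18 members were called lower and 5 higher in Epi.

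Of the other pathway genes, the Eph and ephrin list had 2 of 20 higher and 4 lower in Pc than in DC, and 3 higher and 2 lower in Epi than in Fb. Vav3 was at 43.6 ± 13.5 FPKM in Pc and 0.941 ± 0.388 FPKM in DC, and at 46.4 ± 12.2 FPKM in Epi and 4.50 ± 1.56 FPKM in Fb (SD, n = 2 each). Ptpn13, a phosphatase that binds ephrin-B tails, was higher in both, at 2.25 and 2.21. Chn1, a Rac regulator downstream of Epha4, was lower in both, at -3.46 and -2.70. Of the 11 slit and Robo genes 1 was higher and 2 lower in Pc than in DC, and 0 were higher and 2 lower in Epi than in Fb. The slit and Robo regulators Srgap1 and Srgap3 were the lower ones each time, with log2 differences between -2.11 and -1.06. Of the 14 tested netrin genes 1 was higher and 7 lower in Pc, and 0 were higher and 4 lower in Epi. Trim9, Flrt2, an Unc5 ligand, and the kinase gene Fyn, which acts below Dcc, were lower in both, Trim9 at -6.25 and -1.48, Flrt2 at -4.28 and -3.43, and Fyn at -3.74 and -2.82.

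Unc5c is shown as a receptor that marked DC. Its 250 bases before the RefSeq start lie at chr3:141465314-141465563 on the plus strand of GRCm38.p6. The GENCODE annotation starts the gene at base 141465216, so by that annotation the stretch lies inside the gene.
Unc5c: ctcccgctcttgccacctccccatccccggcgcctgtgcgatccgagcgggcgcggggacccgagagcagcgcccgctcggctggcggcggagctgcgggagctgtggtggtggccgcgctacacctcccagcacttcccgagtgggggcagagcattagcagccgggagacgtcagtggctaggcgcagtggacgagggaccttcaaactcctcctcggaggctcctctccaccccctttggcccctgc
The stretch has a GC content of 71.2% and holds none of the 5 motifs.

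Schwann cells carried less of several receptors and ligands than fibroblasts. limma called 1 member higher and 10 lower in Sch than in Fb, or 11 of 32, where 15.4% of all rows were called, 6.72% higher and 8.68% lower. The lower members were the netrin Ntn1, the slit Slit2, Efnb3, the receptors Epha3, Epha4, Epha8, Robo1, Robo2, Unc5b and Unc5d. The call of Unc5d is a description, as it passed the filter through Fb. The median log2 difference was -0.67 over the members and 0.01 over all rows. Ntn1 had -4.21 ± 0.47 (adjusted p = 3.65e-05). Epha3 and Epha4 had -3.12 ± 0.35 (adjusted p = 3.78e-05) and -2.60 ± 0.36 (adjusted p = 0.000226). Efnb3 had -2.70 ± 0.34 (adjusted p = 0.000102), Robo2 -2.39 ± 0.35 (adjusted p = 0.000331) and Slit2 -2.34 ± 0.26 (adjusted p = 3.18e-05). Epha2 was the higher member, at 1.16 ± 0.29 (adjusted p = 0.0117), from 2.40 and 1.80 FPKM in Sch against 0.356 and 0.403 FPKM in Fb. Efna5 was abundant in both, 103 ± 25.5 FPKM in Sch and 101 ± 28.2 FPKM in Fb (SD, n = 2 each), and Ephb2 was at 17.2 ± 2.79 FPKM in Sch and 11.5 ± 5.74 FPKM in Fb (SD, n = 2 each). Neither was called.

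Of the 11 calls, 8 held under each alternative that could be run. Epha2 lost its call without either Fb replicate or Sch replicate 1 (adjusted p 0.0502 to 0.0896), Epha8 without Fb replicate 1 or either Sch replicate, and Unc5b without Fb replicate 1 or Sch replicate 2 (up to 0.195 for these genes). Under the replicate block Ephb3 (-1.23, adjusted p = 0.000555) and Slit3 (-1.07, adjusted p = 0.00237) were also lower in Sch. Of the other pathway genes, 4 of 20 on the Eph and ephrin list were higher and 2 lower. Ptpn13 was at 80.9 ± 2.49 FPKM in Sch and 12.1 ± 1.30 FPKM in Fb, and Grip1, which binds ephrin-B tails, at 17.2 ± 7.09 FPKM in Sch and 2.23 ± 0.930 FPKM in Fb (SD, n = 2 each). The slit and Robo list had 3 of 11 higher and 1 lower, among them Gpc1, a proteoglycan that binds slits, at 35.5 ± 12.1 FPKM in Sch and 8.22 ± 6.02 FPKM in Fb (SD, n = 2 each). The netrin list had 1 of 14 higher, Ntng1, and 3 lower, led by Flrt2 at -3.15.

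Melanocytes and Schwann cells descend from the neural crest. limma called 1 member higher and 7 lower in Mc than in Sch, or 8 of 32, where 11.8% of all rows were called, 4.53% higher and 7.31% lower. Slit3 had -2.64 ± 0.40 (adjusted p = 0.000572) and Efna5 -2.13 ± 0.35 (adjusted p = 0.000963). Ephb3, Ephb2, Epha7, Epha2 and Efnb2 were the other lower genes, with log2 differences from -1.92 to -1.0. Robo1 was the higher gene, at 1.02 ± 0.16 (adjusted p = 0.000764), with 17.2 and 17.0 FPKM in Mc, against 8.21 and 7.61 FPKM in Sch. The Robo1 value in Pc and Epi, 15.0 to 19.9 FPKM, was near that in Mc, which also held keratinocyte genes at 653 and 457 FPKM, against 234 and 40.5 FPKM in Sch, and their part in the result was not tested. Of the 8 calls, those of Slit3 and Efna5 held under each alternative. The count fell to 3 without Sch replicate 2 or Mc replicate 2 and to 5 without Sch replicate 1, where Epha2, Ephb2 and Ephb3 had an adjusted p of 0.107 to 0.174. Rescaling the libraries, which moved the median of all rows to -0.15, took the Robo1 difference to 0.86, and with the replicate block Efnb1 (-1.25, adjusted p = 0.00486) and Unc5b (1.44, adjusted p = 0.00333) were called too.

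Against the epidermis, limma called 2 members higher and 7 lower in Mc than in Epi, or 9 of 32, where 17.9% of all rows were called, 9.03% higher and 8.9% lower. The lower members included 3 genes of the epithelial group, Epha1 (-3.41), Efna1 (-2.14) and Ntn4 (-1.96). Epha4 had -2.59 ± 0.36 (adjusted p = 0.000222) and Efnb2 -1.89 ± 0.16 (adjusted p = 7.64e-06). Efna3 and Epha2 were also lower. The 2 higher members were the slits, Slit2 by 1.52 ± 0.26 (adjusted p = 0.000851) and Slit3 by 1.45 ± 0.40 (adjusted p = 0.0189). Slit2 was at 4.43 and 3.78 FPKM in Mc, against 0.686 and 0.872 FPKM in Epi, and at 3.37 and 4.14 FPKM in Sch. Fibroblast genes summed to 304 and 194 FPKM in Mc, against 53.1 and 62.1 FPKM in Epi. Schwann cell genes summed to 238 and 248 FPKM in Mc, against 31.0 and 35.2 FPKM in Epi. Slit3 was far higher in Sch and Fb than in Mc, and the part of these traces in the slit differences was not tested. Slit3 lost its call when any of the 4 libraries was left out (adjusted p 0.0501 to 0.119 over the calls lost in that way), and Efna3 without Epi replicate 1. Ephb3 (-1.47, adjusted p = 0.000122) and Unc5b (1.02, adjusted p = 0.0183) were called under the replicate block. Rescaling moved the median of all rows to 0.16.

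Pathway genes were counted in the melanocyte fraction too. Against Sch, where 11.8% of all rows were called, 2 of 20 on the Eph and ephrin list were higher and 5 lower, 0 of 11 slit and Robo genes were higher and 1 lower, and 0 of 14 netrin genes were higher and 2 lower. Sdcbp, a syntenin that binds ephrin-B tails, was at 265 ± 69.0 FPKM in Mc and 71.9 ± 20.5 FPKM in Sch (SD, n = 2 each), and Ntng1 at 1.17 ± 0.714 FPKM in Mc and 23.5 ± 0.975 FPKM in Sch (SD, n = 2 each). Against Epi, where 17.9% of all rows were called, 3 of 20 were higher and 3 lower, 2 of 11 higher and 0 lower, and 1 of 14 higher and 3 lower. Fyn was at 24.7 ± 3.03 FPKM in Mc and 1.78 ± 0.390 FPKM in Epi, and Vav3 at 3.46 ± 0.885 FPKM in Mc and 46.4 ± 12.2 FPKM in Epi (SD, n = 2 each).

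The negative fraction was set against fibroblasts. limma called 5 members higher and 16 lower in Neg than in Fb, or 21 of 32, where 15.5% of all rows were called, 7.77% higher and 7.71% lower. The median log2 difference was -1.04 over the members and 0.00464 over all rows. Robo4 was higher by 3.79 ± 0.32 (adjusted p = 5.22e-06), Efna1 by 2.23 ± 0.34 (adjusted p = 0.000477) and Ephb1 by 1.23 ± 0.19 (adjusted p = 0.000425). The difference of Ephb1 is a description, as this gene passed the filter through DC and Neg alone. Unc5a had a log2 difference of 2.32, a description for the reason given above, and Epha2 had 1.02 ± 0.29 (adjusted p = 0.0242). The 16 lower members were led by Slit3, at -3.40 ± 0.40 (adjusted p = 6.21e-05). Robo2 had -3.03 ± 0.35 (adjusted p = 5.71e-05), Efna5 -2.92 ± 0.35 (adjusted p = 6.67e-05) and Efnb3 -2.59 ± 0.34 (adjusted p = 0.000155). Ntn1 had -2.49 ± 0.47 (adjusted p = 0.00202) and Ephb2 -2.40 ± 0.39 (adjusted p = 0.000829).

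Robo4 is known from endothelial cells, and endothelial genes moved with it. The 7 endothelial markers summed to 398 and 284 FPKM in Neg and to at most 22.7 FPKM in each of the other libraries, with none of them at 0. Among them, Tie1 was at 22.2 and 6.10 FPKM in Neg and Pecam1 at 71.4 and 56.2 FPKM. The erythroid, muscle, mast cell and macrophage lists were also highest in Neg, and their part in the differences from Fb was not tested. Hk3, which the deposited row of Unc5a overlaps, was at 0.328 and 0.0856 FPKM in Neg. The 250 bases before the RefSeq start of Robo4 are shown as those of the member that most clearly marked Neg. They lie at chr9:37401722-37401971 on the plus strand of GRCm38.p6. The GENCODE annotation starts Robo4 at base 37401897, inside this stretch.
Robo4: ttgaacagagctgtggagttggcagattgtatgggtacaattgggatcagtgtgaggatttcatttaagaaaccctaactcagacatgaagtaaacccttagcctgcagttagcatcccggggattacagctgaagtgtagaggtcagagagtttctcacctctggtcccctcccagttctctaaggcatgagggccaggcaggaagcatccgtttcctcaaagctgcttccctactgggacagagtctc
The stretch has a GC content of 49.6% and holds none of the 5 motifs.

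Of the 21 calls between Neg and Fb, 12 held under each alternative that could be run. Dcc, Epha2, Epha7 and Slit2 lost theirs without Fb replicate 2 (adjusted p 0.0615 to 0.319), these 4 and Epha8 without Neg replicate 1 (0.0612 to 0.252), Dcc, Efnb1, Epha7, Epha8 and Ephb3 without Neg replicate 2 (0.0630 to 0.174), and Efnb1, Epha2, Epha8, Ephb3 and Ntn3 without Fb replicate 1 (0.0100 to 0.181). Ntn3 lost its call there by size, with a log2 difference of -0.98 without Fb replicate 1. With the 4 libraries of Neg and Fb fitted alone 12 members were called in place of 21. Rescaling the libraries moved the median of all rows to -0.20 and the share of higher calls to 37.4%, from 50.2% as deposited, and then 4 members were called higher and 18 lower, Epha2 no longer among them. Efna2 (-1.20, adjusted p = 0.0261) was also lower under the replicate block.

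Of the other pathway genes, 2 of 20 on the Eph and ephrin list were higher in Neg than in Fb and 1 lower. Arhgef15, an exchange factor of the ephexin family that is active in vessels, was at 28.4 ± 14.2 FPKM in Neg and 1.26 ± 0.465 FPKM in Fb (SD, n = 2 each), a log2 difference of 3.62 ± 0.39 (adjusted p = 3.09e-05). The slit and Robo list had 1 of 11 higher, Gpc1, and 1 lower, Srgap3. On the netrin list 0 of 14 were higher and 5 lower, among them Neo1, a relative of Dcc, at 20.9 ± 0.253 FPKM in Neg and 48.7 ± 5.59 FPKM in Fb, and Flrt3 at 9.82 ± 4.51 FPKM in Neg and 57.2 ± 20.4 FPKM in Fb (SD, n = 2 each). Over the 8 comparisons limma made 106 calls among the members, and 31 of 32 members were called at least once, Ephb4 being the exception.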

How the data were processed

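RNA of sorted mouse skin cells was of integrity number 8.8 or more, and 6 ng was amplified and 100 ng of cDNA entered each library, per the labels' protocols. TopHat2 2.0.3, Bowtie2, Cufflinks 2.1.1 and mm10 are named in the submitters' processing notes. The deposited table holds FPKM values that the authors computed per gene and library. Neither counts nor the use of strand in counting is stated there. Absolute depth is unknown, so no counting interval is given. The steps of low values in 7 replicate 2 libraries, of which 26.3% to 59.0% of rows fell in 1 bin, put their depth at 0.856 to 3.19 times that of Fb replicate 2. Against Fb replicate 1, that share was 11.8% to 30.7% for DC, DCSch, Sch and Neg replicate 1. For Pc, Mc and Epi replicate 1 it was 2.84% to 4.80%, so no depth is given for them. Pc against DC, Epi against Fb and Mc against Sch fall across this split, and its part in them was not tested.

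From the FPKM values, log2(FPKM + 1) was fitted with limma 3.58.1 (R 4.3.3, intensity trend, robust) as 1 mean per fraction over 16 libraries, on the 14171 rows with at least 1 FPKM in at least 2 libraries. P-values were adjusted by Benjamini and Hochberg over those rows. A call needed an adjusted p under 0.05 and a log2 difference of at least 1. The scripts were tested on simulated data. Members and lists were chosen with earlier results of these data known. By rule every member is named, with all libraries for those that mark a fraction or that are called at least once and average 10 FPKM or more in their highest fraction. Up to 6 called members each way get full statistics per comparison, and up to 4 called pathway genes per list are named. Alternatives were another pseudocount, no filter, rescaled totals, quantile normalization, 4 libraries alone, each library left out and a replicate block. The replicate number was read as pairing samples, since the deviations of same-numbered libraries correlated in 28 of 28 pairs of fractions (0.148 to 0.656). The main fit leaves this pairing out. Counts, standard errors and p-values given without mention of the block come from that fit.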

Additional observations from a re-analysis of the deposited data

Results flagged for a closer look

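For 9 members the difference between follicle and other cells was unlike in epithelium and dermis, by limma's test of (Pc minus Epi) minus (DC minus Fb). All values are on the log2 scale, with limma's adjusted p. Dcc, Ephb1 and Slit2 were below 1 FPKM in every Pc and Epi library, so their values largely repeat DC minus Fb. Ntn1 had 3.77 (adjusted p = 0.00222) and Efna5 3.29 (adjusted p = 0.000789), both lower in DC than in Fb and not called between Pc and Epi. Ntn4 had 1.55 (adjusted p = 0.012) and Slit2 1.30 (adjusted p = 0.0305). The negative values were -2.59 (adjusted p = 0.00246) for Dcc, -2.20 (adjusted p = 0.0227) for Epha7, -2.1 (adjusted p = 0.000249) for Ephb1, -1.75 (adjusted p = 0.0402) for Efna3 and -1.25 (adjusted p = 0.00273) for Robo1. The calls of Dcc, Efna5, Ephb1, Ntn1 and Robo1 held under each of the 13 alternatives run. That of Ephb1 remains a description, as this gene entered the test through DC and Neg alone. Efna3 lost its call under 9 of them and Slit2 under 8, both also with a pseudocount of 0.1. Epha7 lost its call under 4 and Ntn4 under 1, without Epi replicate 2.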

How the results depend on the processing

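Of the 106 calls between fractions, 68 held under every alternative in which they were tested, 38 were lost under at least 1, and 0 were reversed. With the 4 libraries compared fitted alone, 6 members were called between DC and Fb and 12 between Neg and Fb. With a pseudocount of 0.1, 4 members marked a fraction. With the replicate block 12 members marked a fraction and 16 differed between the follicle contrasts. Over the 8 comparisons the block added 10 calls in 5 members and lost 0. In the test over all fractions it added Ephb4 and Efna2, for 32 of 32. Leaving out each library in turn gave 3 to 6 calls between Mc and Sch, 4 to 8 marks and 5 to 10 differences between the follicle contrasts. Between DC and Fb it gave 10 to 12 calls, between Epi and Fb 17 to 20, between Pc and DC 19 to 23, between Sch and Fb 9 to 11, between Mc and Epi 7 to 8, between Neg and Fb 15 to 18, and between Pc and Epi 0 each time. With 2 libraries per fraction, a lone library left in a fraction was assumed to vary like the others. Rescaled totals gave 1124 rows higher and 2433 lower in Epi than in Fb, against 1483 and 1987 as deposited, and 891 higher and 1493 lower in Neg than in Fb, against 1101 and 1092. The cause of these changes was not tested. Without counts, the depth behind a low value is unknown.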

Other observations

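DCSch, the sort of dermal condensate with Schwann cells, lay between DC and Sch in mean level for 25 of 32 members (78.1%), where it did so for 62.1% of all rows. Robo1 was at 41.3 ± 2.58 FPKM in DCSch, 85.3 ± 3.22 FPKM in DC and 7.91 ± 0.426 FPKM in Sch (SD, n = 2 each). Ephb1 was an exception, at 0.379 ± 0.107 FPKM in DCSch, 3.95 ± 1.06 FPKM in DC and 0.637 ± 0.0440 FPKM in Sch (SD, n = 2 each).

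Efna3, Ephb3 and Ephb4 were higher in replicate 1 than in replicate 2 in all 8 fractions, and Efna5, Epha3 and Epha7 were lower in all 8. That is 9.38% of the members each way, where 12.6% of all rows were higher and 19.9% lower in all 8.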
